A study of Avicennia officinalis with 4 samples.

Results

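Around the ethylene response factor unigene ERF114 (Unigene35061_All, Ug35061), the study drew a network of unigenes and gave gene names to a few of them. The 6 named unigenes described here are BADH (Unigene116322_All), PDH (Unigene60515_All), CSP1 (Unigene150235_All), CSP3 (Unigene150143_All), PERK2 (Unigene150906_All) and HRGP (Unigene103611_All), out of 168308 unigenes in the deposited table. An elongation factor was also named in that network and was not analysed here. The study also measured a few selected genes of its networks by qRT-PCR in A. officinalis roots, and homologous genes in Arabidopsis roots. The legend of that figure spells out BADH, PDH and CSP1 among the gene names. It does not say in which of the 2 species each was measured. Those qRT-PCR measurements are separate from the libraries described here and were not used. The members were chosen by their RPKM in these same 4 libraries: the network was drawn from unigenes called up-regulated by salt, and its links used the RPKM values together with protein alignment scores. Both the difference between salt-treated and control libraries and the likeness of the profiles were thus part of the choice, and they are described below without a test. The names were not checked against sequence here, as the table gives an identifier and a length for each unigene.

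The libraries were made from roots of two-month-old greenhouse seedlings of the mangrove Avicennia officinalis. The salt-treated plants received half-strength Hoagland's solution with 500 mM NaCl for 24 h (2 libraries, salt-treated replicates 1 and 2), and the control plants were kept without that salt treatment (2 libraries, control replicates 1 and 2). Each library pooled RNA from the roots of 3 plants, so a value is the mean of a small pool and not of a single plant.

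Glycine betaine is a small organic solute that many halophytes accumulate to balance the osmotic pressure of salt outside the cell, and betaine aldehyde dehydrogenase (BADH) makes it from betaine aldehyde. Ethylene response factors are plant transcription factors that act downstream of the hormone ethylene, and many bind a short DNA element called the GCC box. The other names belong to central carbon metabolism (pyruvate dehydrogenase, PDH, which feeds pyruvate carbon into the citric acid cycle), to RNA-binding cold shock domain proteins that act as RNA chaperones in Arabidopsis (CSP1 and CSP3), and to the cell wall. Proline-rich receptor-like kinases such as PERK2 are not wall proteins themselves but have an extracellular part that resembles them. Extensins (HRGP, hydroxyproline-rich glycoproteins) are structural proteins that are cross-linked into the wall.

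The 62900 unigenes tested below took up 16943847 to 22074032 reads in a library, and the TMM factors lay between 0.974 and 1.05. The largest unigene took 3.21% to 3.27% of the reads in the replicate 1 libraries and 7.403% to 10.8% in the replicate 2 libraries. Where no read was found, up to 3 reads remain possible. This limit and the exact intervals of the ratios cover counting error only. RPKM corrects the read count of a unigene for its length and for the size of the library. Ug86979, a chlorophyll a-b binding protein unigene and so a mark of green tissue, had 0.506 and 0.607 RPKM in salt-treated replicates 1 and 2, against 2.67 and 2.13 RPKM in control replicates 1 and 2. The study lists Ug86979 among genes lowered by salt in these same libraries, so the difference is no independent check of the tissue.

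All 6 network unigenes had most of their reads in 1 library, salt-treated replicate 2. This library held between 81.6% (BADH) and 98.5% (PERK2) of the CPM (a read count corrected for library size alone) of a unigene summed over the 4 libraries. Among the 80709 unigenes with at least 20 reads over the 4 libraries, 5.18% had over 50% of their summed CPM in salt-treated replicate 2. Salt-treated replicate 1 had between 0 and 11 reads for each of the 6, and control replicate 1 between 0 and 8. In 0 of the 6 were the salt-treated libraries both above the control ones, a pattern found in 9.69% of the 80709 unigenes. These numbers describe how the members look, since the choice of members used the same libraries.

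**Figure D1:**
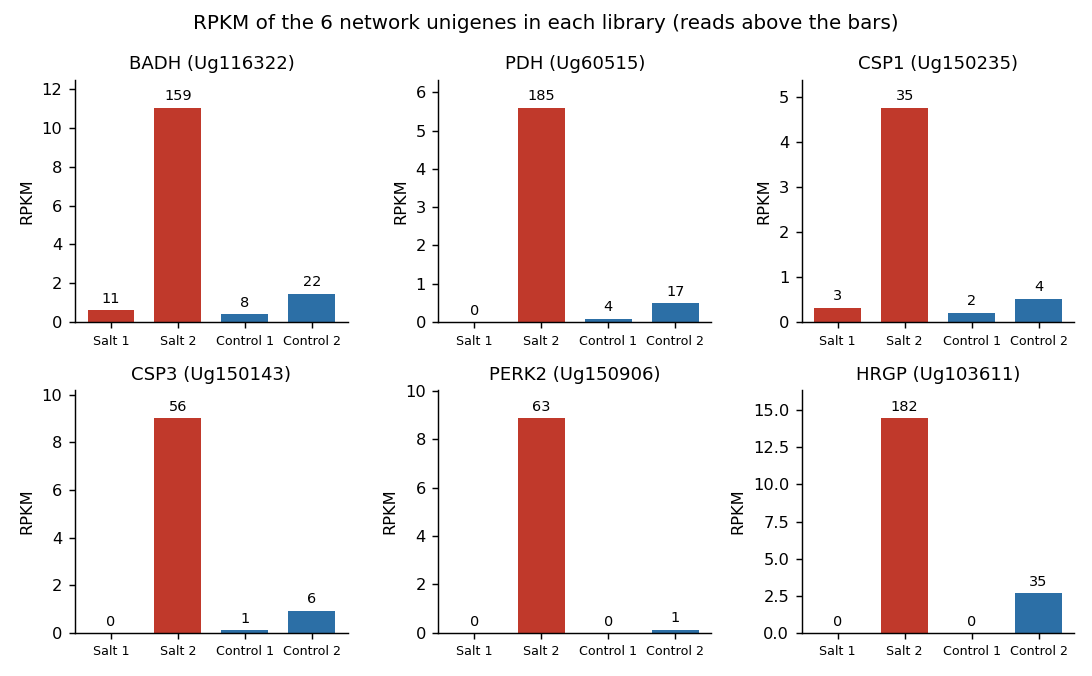
RPKM (vertical axis, scaled for each panel) of the 6 network unigenes in the 4 libraries, with the number of reads above each bar. Salt-treated replicate 2 is the tallest bar in all 6 panels, and control replicate 2 is the next one.

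BADH, the enzyme of the last step of glycine betaine synthesis, was the only one of the 6 with more than 3 reads in each library. It had 0.602 RPKM (11 reads) and 11.1 RPKM (159 reads) in salt-treated replicates 1 and 2, against 0.424 RPKM (8 reads) and 1.47 RPKM (22 reads) in control replicates 1 and 2. Salt-treated replicate 2 stood apart, and salt-treated replicate 1 fell between the control libraries, so the groups overlapped. The mean was 5.83 ± 7.39 RPKM in the salt-treated roots and 0.948 ± 0.740 RPKM in the control (SD, n = 2 libraries each). Within replicate number 2 the ratio of salt-treated to control was 7.51 (95% exact interval 4.79 to 12.3), and within replicate number 1 it was 1.42 (0.519 to 4.06). The interval for replicate number 1 includes 1, so a difference in BADH was not detectable there at this depth.

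PDH, the enzyme complex that converts pyruvate to acetyl-CoA, was the longest of the 6 unigenes, at 1929 bp. The network name does not say which subunit it encodes. PDH had 0 reads and 185 reads (5.60 RPKM) in salt-treated replicates 1 and 2, against 4 reads (0.0924 RPKM) and 17 reads (0.495 RPKM) in control replicates 1 and 2. The salt-treated libraries were the lowest and the highest of the 4. The ratio of salt-treated to control was 11.3 (6.88 to 19.8) within replicate number 2. Within replicate number 1 the 0 against 4 reads allow a ratio of up to 1.56.

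The cold shock proteins CSP1 and CSP3 are short unigenes of 429 and 363 bp and rest on few reads. CSP1 had 3 and 35 reads in salt-treated replicates 1 and 2, against 2 and 4 reads in control replicates 1 and 2. CSP3 had 0 and 56 reads in salt-treated replicates 1 and 2, against 1 and 6 reads in control replicates 1 and 2. Both were far above the other libraries in salt-treated replicate 2, at 4.76 RPKM for CSP1 and 9.01 RPKM for CSP3. Within replicate number 2, the ratios of salt-treated to control were alike in size, 9.10 (3.25 to 35.2) for CSP1 and 9.70 (4.19 to 27.6) for CSP3. Within replicate number 1 the reads were too few to show a difference in either. As both names belong to one protein family, reads of near-identical copies could have been split between unigenes.

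The 2 unigenes with names related to the cell wall had no read in the replicate 1 libraries of either condition. PERK2, a receptor-like kinase with a proline-rich extracellular part, had 0 and 63 reads in salt-treated replicates 1 and 2, against 0 and 1 read in control replicates 1 and 2. Its ratio within replicate number 2 was the largest of the 6, at 65.5, with a wide interval (11.3 to 2627) because it is set against a single read. HRGP, an extensin, had 0 and 182 reads in salt-treated replicates 1 and 2, against 0 and 35 reads in control replicates 1 and 2. HRGP reached the highest level of the 6 in salt-treated replicate 2, 14.5 RPKM, and also in control replicate 2, 2.67 RPKM. Its ratio within replicate number 2 was the smallest of the 6, at 5.41 (3.75 to 8.001). No ratio can be given within replicate number 1 for either. The limit of 3 reads stands at 0.187 RPKM for HRGP and 0.332 RPKM for PERK2 in salt-treated replicate 1.

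By RPKM in salt-treated replicate 2, the order was HRGP (14.5), BADH (11.1), CSP3 (9.01), PERK2 (8.86), PDH (5.60) and CSP1 (4.76). CSP3 and PERK2, with 56 and 63 reads, are neighbours in this order and cannot be told apart at this depth. The other steps of the order were not tested, and CSP1 rests on 35 reads. These levels lay between the 78.1st (CSP1) and the 91.5th (HRGP) percentile of the 80709 unigenes in that library. In control replicate 2 they lay between the 9.75th percentile (PERK2) and the 63.7th (HRGP).

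Replicates differed within the control as well. This comparison involves no salt, although the RPKM of the control libraries also entered the choice of members. Control replicate 2 was above control replicate 1 for all 6 unigenes, whereas this was the case for 47.5% of the 80709 unigenes. For BADH the ratio of control replicate 2 to control replicate 1 was 3.47 (95% exact interval 1.49 to 9.01), and for PDH it was 5.36 (1.75 to 21.9). HRGP was at least 14.7-fold higher in control replicate 2, set against the limit of 3 reads in control replicate 1, and the exact interval of its ratio starts at 11.3. For CSP1, CSP3 and PERK2 the reads, between 0 and 6 in the control libraries, could not show a difference. In the salt-treated roots, replicate 2 was above replicate 1 for all 6, compared with 44.8% of the 80709 unigenes. BADH was 18.4-fold higher (9.995 to 37.6) and CSP1 14.8-fold higher (4.68 to 75.4). Against the limit of 3 reads in salt-treated replicate 1, PDH was at least 78.4-fold higher, HRGP at least 77.1-fold, PERK2 at least 26.7-fold and CSP3 at least 23.7-fold. With the counting error of both libraries, the exact 95% intervals of these ratios start lower, at 63.1 for PDH, 62.1 for HRGP, 21.1 for PERK2 and 18.7 for CSP3.

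**Figure D2:**
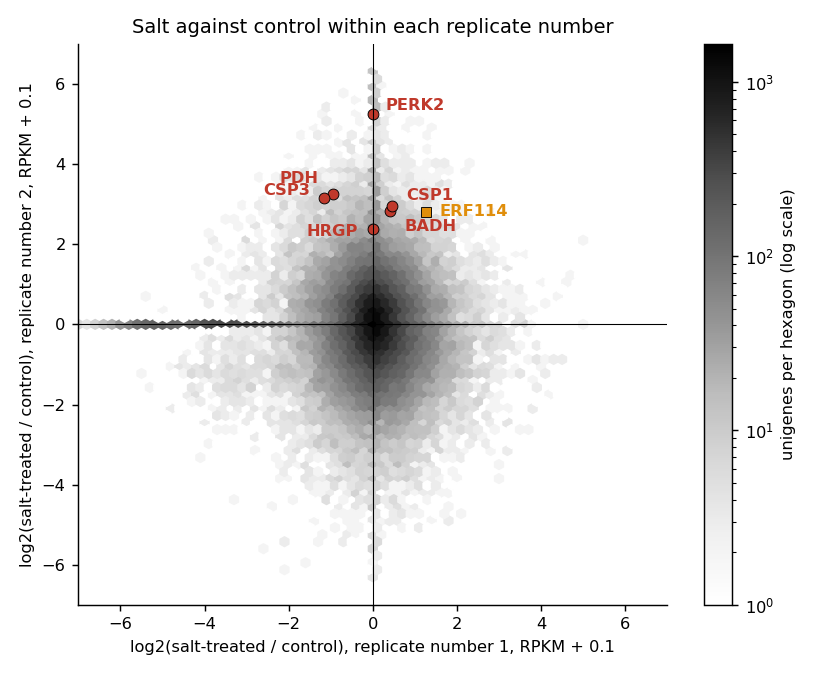
Log2 ratio of salt-treated to control (RPKM + 0.1) within replicate number 1 (horizontal axis) and replicate number 2 (vertical axis). Grey hexagons count the 80709 unigenes with at least 20 reads, red circles are the 6 network unigenes and the orange square is ERF114. The 6 unigenes lie between 2.39 and 5.25 on the vertical axis and between -1.16 and 0.45 on the horizontal axis, where PERK2 and HRGP stand at 0 because they have no reads.

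Salt-treated replicate 2 was above control replicate 2 for all 6 unigenes, and by at least 4-fold for all 6. Over the 80709 unigenes these shares were 47.7% and 5.58%. Salt-treated replicate 1 was above control replicate 1 for 2 of the 6, BADH and CSP1, with 11 against 8 and 3 against 2 reads, and by at least 4-fold for 0 of the 6. Over the 80709 unigenes these shares were 53.3% and 3.15%. Salt-treated was above control within both replicate numbers for the same 2 of the 6, compared with 25.8% of the 80709. The median log2 ratio of the 6, on the scale of RPKM plus 0.1, was 3.05 within replicate number 2 and 0.00 within replicate number 1, where the median of the 80709 unigenes was 0.00 and 0.03. On this scale, changes of low unigenes come out too small. ERF114 itself differed from the 6 in that its lowest salt-treated library was still above its highest control library. It had 1.62 RPKM (72 reads) and 9.17 RPKM (321 reads) in salt-treated replicates 1 and 2, against 0.610 RPKM (28 reads) and 1.24 RPKM (45 reads) in control replicates 1 and 2. The ratio of salt-treated to control for ERF114 was 2.65 (1.69 to 4.26) within replicate number 1 and 7.42 (5.42 to 10.4) within replicate number 2.

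Across the whole table, the quasi-likelihood test of edgeR found 0 of 62900 unigenes higher in salt at a Benjamini-Hochberg adjusted p of 0.05 or less (0.0%). At an unadjusted p under 0.05 there were 60 (0.0954%), and DESeq2 called 1 (0.00159%). These counts are over all unigenes, and no test outcome is read for the members, since they were chosen on this contrast. BADH, PDH and HRGP passed the filter on reads. CSP1, CSP3 and PERK2 did not, because salt-treated replicate 2 was their only library with enough reads for it. As a description, the fitted log2 fold change was 2.62 (standard error 1.48) for BADH, 3.25 (2.32) for PDH and 2.43 (2.65) for HRGP, while the median of all tested unigenes was 0.00. Salt-treated replicate 2 decided the direction of the fitted change of all 3. When this library was left out, the log2 fold change was -0.72 (1.37) for BADH, -6.59 for PDH and -7.38 for HRGP. For PDH and HRGP, the remaining salt-treated library had 0 reads, so the size of the value depends on the prior count and is no bound. The fit without salt-treated replicate 2 sets salt-treated replicate 1 against both control libraries. Control replicate 2 was above control replicate 1 for all 3 unigenes, so the negative values also hold the difference between replicate numbers. Within replicate number 1 the ratio of salt-treated to control was 1.42 (0.519 to 4.06) for BADH, and HRGP had no read in either library. This fit also assumes that the lone salt-treated library varies like the control libraries. ERF114 had a log2 fold change of 2.54 (1.02) with all libraries and 0.73 (0.90) without salt-treated replicate 2.

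**Figure D3:**
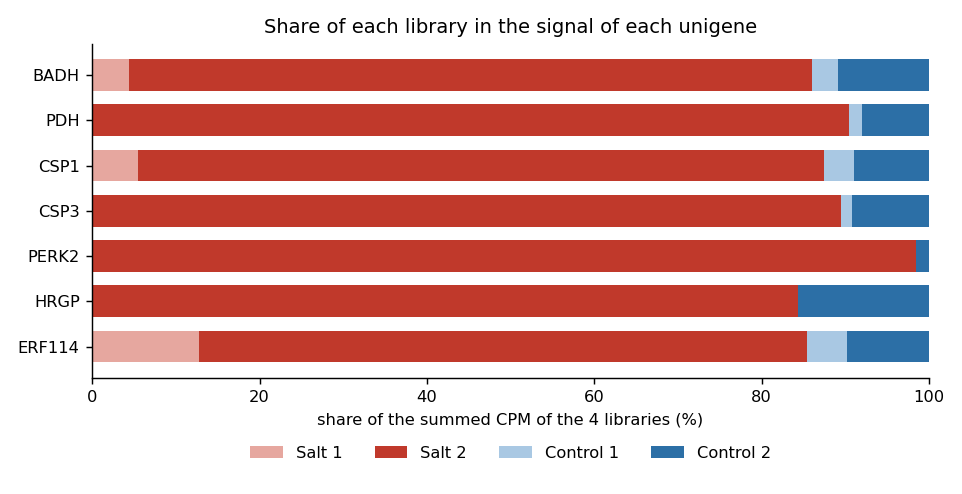
Share of each library (horizontal axis, percent) in the CPM summed over the 4 libraries, for the 6 network unigenes and ERF114. Salt-treated replicate 2 fills between 81.6% and 98.5% of the bars of the 6 unigenes and 72.6% of the bar of ERF114.

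The profiles of the 6 unigenes across the libraries were compared by the Euclidean distance between log2(CPM + 0.5) values, TMM-scaled and centred on the mean of each unigene. With 4 libraries no correlation is given. BADH and CSP3 were the nearest pair, at 0.517 log2 units, and CSP1 and HRGP were the farthest, at 2.26. CSP1 and HRGP differ in their number of reads (44 against 217 over the 4 libraries), and the added 0.5 draws unigenes with few reads towards a flat profile. In CPM, the library order of BADH, salt-treated replicate 2, control replicate 2, salt-treated replicate 1 and control replicate 1, was shared by CSP1. PDH and CSP3 had the order of the last 2 libraries reversed, by 4 and 1 reads.

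Of the 145 unigenes in the study's tables of transcription factors and of salt tolerance-related genes, 122 had at least 20 reads, and the nearest of them to each member were sought with the same distance over the 4 libraries. For BADH it was a ubiquitin-60S ribosomal protein unigene (Ug128790, distance 0.424), with 4 and 98 reads in salt-treated replicates 1 and 2, against 4 and 20 in control replicates 1 and 2. For PDH it was a 60S ribosomal protein L26-2 unigene (Ug88245, 0.344), with 1 and 192 reads in the salt-treated libraries, against 10 and 24 in the control. These are the same shape of profile, high in salt-treated replicate 2. A NAC transcription factor unigene was nearest to CSP1 (Ug149916, 0.124) and another to PERK2 (Ug42722, 0.314). An ERF unigene was nearest to CSP3 (Ug152478, 0.275), and the Trihelix unigene Ug113286 was nearest to HRGP (0.426). The second nearest were Ug103082 (heat shock 70 kDa protein) for BADH, Ug38087 (60S ribosomal protein L11-2) for PDH, Ug150075 (14-3-3-like protein) for CSP1, Ug152164 (ubiquitin-60S ribosomal protein) for CSP3, Ug150526 (adenosyl homocysteinase) for PERK2 and Ug90287 (40S ribosomal protein S18) for HRGP. The tables were drawn up from these libraries, and Ug88245, Ug38087 and Ug90287 also stand in the network around ERF114. Of all unigenes, between 11 (HRGP) and 40 (CSP3) other unigenes were closer than the nearest named one.

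The 6 unigenes also differed in where their numbers fall in the assembly. The choice did not use the numbers themselves. It did use the RPKM of these libraries, with which the numbers go together, so the numbers are not independent of the choice. CSP3, CSP1 and PERK2 have numbers between 150000 and 154999, a block chosen here after its values were seen. Of the 1721 unigenes of this block with at least 20 reads, 67.5% had over 50% of their summed CPM in salt-treated replicate 2, compared with 3.82% of the 78988 other unigenes. A unigene with few reads elsewhere reaches 20 reads only through the library where it is high, as CSP1, CSP3 and PERK2 do. These shares, and those near each member below, thus depend in part on that filter. The block holds 5000 numbers and 27.8% of all unigenes with that pattern. It took 0.144% and 0.552% of the counted reads of salt-treated replicates 1 and 2, against 0.144% and 0.158% in control replicates 1 and 2. In 43.8% of the 1721 unigenes the replicate 1 libraries together had 3 reads or fewer, compared with 2.74% of the 80709 unigenes. Of the 6 network unigenes, CSP3, PERK2 and HRGP had 3 reads or fewer there. Such blocks were not particular to these members. In the 3 bins of 2500 numbers between 130000 and 137499, 80.7%, 94.1% and 60.1% of the unigenes had 3 reads or fewer in the replicate 2 libraries together, and in the bin from 137500 to 139999, 26.6% had 3 reads or fewer in the replicate 1 libraries together.

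Close to CSP1, CSP3 and PERK2 most unigenes were high in salt-treated replicate 2, and close to BADH, PDH and HRGP few were. Among unigenes with at least 20 reads within 200 numbers of the member, over 50% of the summed CPM lay in salt-treated replicate 2 for 68.8% near CSP1, 68.4% near CSP3 and 71.5% near PERK2. Near BADH, PDH and HRGP the shares were 7.91%, 3.27% and 4.17%, against 5.18% over all 80709. CSP1 and CSP3 had more than 3 reads in the replicate 2 libraries and not in the replicate 1 libraries, and 37.6% (95% Wilson interval 30.02 to 45.8%) and 38.5% (30.1 to 47.5%) of their neighbours had this same set of libraries. Over all 80709 unigenes it was 2.79%. For HRGP, with the same set, the share of neighbours was 7.14% (4.13 to 12.1%), and within 50 numbers it was 4.08% (1.127 to 13.7%). PERK2 had more than 3 reads in salt-treated replicate 2 alone, as did 24.1% of its neighbours and 0.513% of all 80709. PDH lacked this number of reads in salt-treated replicate 1 alone, as did 1.63% of its neighbours and 2.64% of all. BADH had it in all 4 libraries, as did 44.6% of its neighbours and 73.3% of all. The neighbours of CSP1 and CSP3 overlap, so these shares are not independent. The Wilson intervals treat the neighbours of a member as independent, which they need not be, and hold no counting error of reads.

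**Figure D4:**
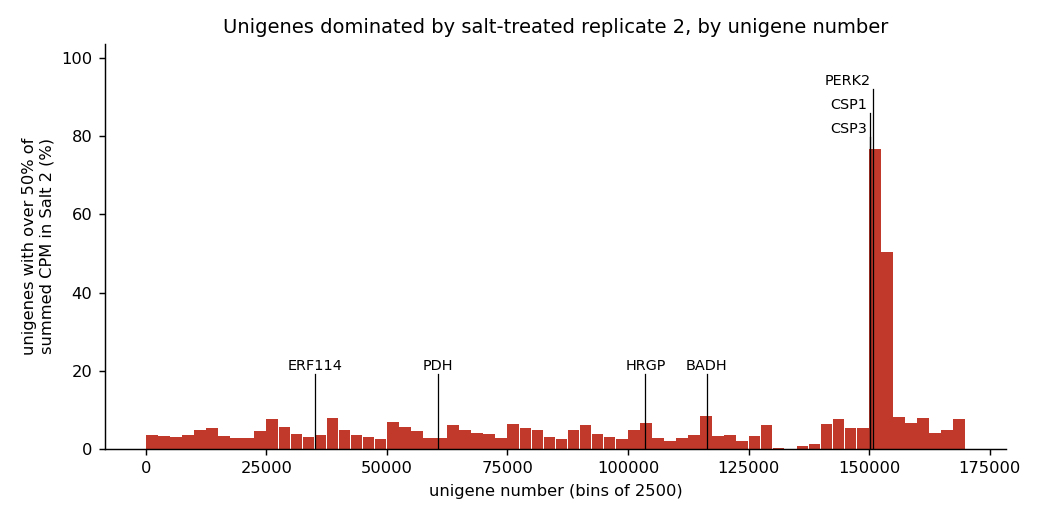
Percent of unigenes with at least 20 reads that have over 50% of their summed CPM in salt-treated replicate 2 (vertical axis), in bins of 2500 unigene numbers (horizontal axis), with the members and ERF114 marked. The bin that holds CSP3, CSP1 and PERK2 stands at 76.8% and the next bin at 50.5%, while BADH, PDH, HRGP and ERF114 fall in bins at 8.32% or less.

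The study's table of transcription factors gives the species of the best protein match. In 6 of its unigenes this is an alga or an oomycete, and a best match alone does not give the species of origin. All 6 had reads in the libraries of 1 replicate number and none in the other. This was also the case for 21.3% of the 122 table unigenes with at least 20 reads, these 6 included, for 6.06% of the 80709 unigenes, and for 2 of the network unigenes, PERK2 and HRGP. Ug149801 (best match in Phytophthora sojae, an oomycete) had 0 and 69 reads in salt-treated replicates 1 and 2, against 0 and 14 in control replicates 1 and 2. Ug149916 (Chlorella variabilis, a green alga) had 0 and 28 reads in the salt-treated libraries, against 0 and 1 in the control. Like HRGP and PERK2, these 2 had reads in the replicate 2 libraries only. So did the NAC unigene Ug42722, whose best match is in a plant, M. domestica. It had 0 and 50 reads in the salt-treated libraries, against 0 and 2 in the control. By the distance used above, Ug149916 was the named unigene nearest to CSP1 (0.124). Neither Ug149801 nor Ug149916 was among the 2 named unigenes nearest to HRGP or to PERK2. The other 4 had reads in replicate 1 only, such as Ug131052 (Chlamydomonas reinhardtii, a green alga), with 33 and 0 reads in salt-treated replicates 1 and 2, against 484 and 0 in control replicates 1 and 2. The summed level of all 6 was 2.64 and 11.6 RPKM in the salt-treated libraries, against 37.4 and 1.58 RPKM in the control. The species of origin of the 6 network unigenes was not tested. In pooled roots, fewer cells that express a gene and less RNA per cell cannot be told apart either.

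The study's names allow a few related genes to be set beside the network, in lists that it chose as changed in these same libraries, so their direction is not independent evidence. Over the 80709 unigenes, salt-treated was above control within both replicate numbers for 25.8% and below it for 19.9%, and 5.18% had over 50% of their summed CPM in salt-treated replicate 2. These shares are the background of the counts in each list. Of 7 ERF unigenes, ERF114 included, 5 were tested and 0 were called as higher or lower by edgeR. Salt-treated was above control within both replicate numbers for 4 of the 7 and below it for 2, and 3 had over 50% of their summed CPM in salt-treated replicate 2. The ERF unigene with the most reads, Ug20505, had 115 and 412 reads in the salt-treated libraries, against 222 and 1993 in the control, and the one with the fewest, Ug42955, had 2 and 1 against 0 and 0.

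Of 7 unigenes of carbon and amino acid metabolism, the field of PDH, 3 were tested and 0 were called in either direction. Within both replicate numbers 4 were higher and 3 lower in salt, and 1 had over 50% of its summed CPM in salt-treated replicate 2. Dihydroxy-acid dehydratase-like (Ug7542), an enzyme name of branched-chain amino acid synthesis and the unigene with the most reads, had 20 and 14 reads in the salt-treated libraries, against 8 and 0 in the control. Isocitrate dehydrogenase (Ug155336), with the fewest, had 0 and 0 against 2 and 14.

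Of 7 cell wall and receptor-like kinase unigenes, the field of PERK2 and HRGP, 3 were tested and 0 were called in either direction. Within both replicate numbers 3 were higher and 4 lower in salt, and 3 had over 50% of their summed CPM in salt-treated replicate 2. The 14 kDa proline-rich protein unigene Ug22930, with the most reads, had 39 and 487 reads in the salt-treated libraries, against 49 and 5701 in the control. Like the extensin HRGP, it was higher in replicate 2 of both conditions, but its highest library was control replicate 2. A leucine-rich repeat receptor kinase (Ug55273), with the fewest, had 0 and 0 reads against 10 and 6. The median log2 fold change of the tested unigenes was 1.07 for the ERF list, 1.09 for the metabolism list and -2.06 for the wall list, against 0.00 over all tested unigenes.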

How the data were processed

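Root mRNA of 4 Avicennia officinalis libraries (2 salt-treated, 2 control) was sequenced on an Illumina HiSeq platform. The authors assembled the reads de novo with Trinity and deposited, for each unigene, its length, the raw read counts of each library and the RPKM that their methods obtain with SOAP. The deposited RPKM equals the reads scaled to unigene length and to the library total, to within 5e-05. The treatment of read pairs and of multiple hits was not given in the sources used. Condition and replicate number came from the sample titles.

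Counts were tested with edgeR 4.0.16 in R 4.3.3 (filterByExpr, minimum count 10 and minimum total 15, TMM, glmQLFit, glmQLFTest, with no term beside condition), with Benjamini-Hochberg adjustment over 62900 unigenes. DESeq2 1.42.0 and limma 3.58.1 were alternatives, and the edgeR fit was tested on simulated data. Ratios between 2 libraries were computed with scipy 1.17.1 (Python 3.11.15), with exact binomial (Clopper-Pearson) 95% intervals of the reads scaled to the library totals. They compare those libraries and not the conditions. Descriptions over all unigenes used those with at least 20 reads over the 4 libraries. The named unigenes were the 6 members, ERF114, the 2 nearest named profiles for each member, and the unigenes with the most and the fewest reads in each list. Any further unigene, the block of unigene numbers and the 50% share were picked once values had been seen. The members and lists were chosen with earlier results of these data known.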

Additional observations from a re-analysis of the deposited data

How the results depend on the processing

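The direction of the fitted log2 fold change of the 3 members that passed the filter on reads rested on salt-treated replicate 2. Over all fits with 1 library left out, the log2 fold change lay between -0.72 and 3.76 for BADH, between -6.59 and 4.88 for PDH and between -7.38 and 9.79 for HRGP, with the lowest value without salt-treated replicate 2 in each case. The same range was 0.73 to 3.32 for ERF114. DESeq2 called 2 unigenes in all, and the other alternatives, including upper quartile factors, no composition factors, no filter, a stricter filter, limma on log2(RPKM + 0.1) and each library left out, called 0. Without a filter, edgeR gave log2 fold changes of 2.73 for CSP1, 3.06 for CSP3 and 5.82 for PERK2. The replicate numbers mark no shared origin in the labels. The deviations of same-numbered libraries from their group means had a Pearson correlation of 0.668 across 62900 unigenes, which are not independent. With the replicate block, edgeR called 0 unigenes, while 586 were higher and 1570 lower at an unadjusted p under 0.05, against 60 and 69 without it. The block gave log2 fold changes of 1.96 for BADH, 2.27 for PDH and 2.39 for HRGP. TMM scaling left the counts of members above control, 2 within replicate number 1 and 6 within replicate number 2, as they were. With 1 added to the RPKM, the log2 ratio within replicate number 2 was 2.14 for PDH and 3.12 for PERK2. With 0.1 in place of 0.5 added to the CPM, the nearest named unigene changed for 4 of the 6 members, BADH, PDH, CSP3 and HRGP. With a window of 1000 numbers, 21.1% of the neighbours of CSP1 and 18.7% of those of CSP3 shared their set of libraries, and with a window of 50 numbers 4.08% of those of HRGP and 0.0% of those of PDH did. The few reads of CSP1, CSP3 and PERK2 limit every ratio given for them.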
